A study of Homo sapiens with 4 samples.

Results

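Most poly(A) site clusters (PACs) in a 3′ UTR lie just after the canonical poly(A) signal AAUAAA or its commonest variant AUUAAA. The PACs described here are those that do not. They were taken from PAS-seq of KYSE30 and TE-1, established human ESCC (esophageal squamous cell carcinoma) cell lines, as PACs with TPM above 5 in any of the 4 libraries whose dominant site, in the library where the PAC was highest, lay in a protein-coding 3′ UTR of GENCODE on the same strand and had neither hexamer in the 50 nt upstream. There were 1776 such PACs of 11672 3′ UTR PACs above this level (15.2%, 95% interval 14.6% to 15.9%), and of 17627 PACs listed in all. The other 9896 3′ UTR PACs serve for comparison, 7947 with AAUAAA and 1949 with AUUAAA alone. Each line gave 1 library of cells treated with l-lactate and 1 control library (PBS), so there are 4 groups of 1 library. The titles of the control libraries name KYSE30 and TE-1, and their cell line labels read KYSE32 and TE-3. The titles were followed here.

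Cleavage and polyadenylation form the 3′ end of almost every mRNA. The complex CPSF, through its subunits CPSF4 and WDR33, reads the hexamer upstream of the cut, CFIm binds UGUA further upstream, and CstF binds GU-rich or U-rich sequence downstream. Single-base changes of the canonical hexamer are known to work less well in isolation, and genes with several sites can switch between a short and a long 3′ UTR by alternative polyadenylation (APA).

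The sequences below show the 30 nt that end just before the dominant site, on GRCh38, for PACs that were high in TPM. They are given because they show which hexamer, if any, stood in the place of the main signals before that site. In the library where the PAC was highest, the dominant site held 22.9% of its tags in PCBP2, 37.9% in EIF2S3 and 47.4% in NCL. In these 3 PACs most tags thus lay at other sites, whose sequence is not shown. In the rest the share was 66.3% (CHTOP) to 98.5% (RPL34). Capitals mark a match to a list of 11 further variants, each spelled out with its share after the sequences. They are written with T for U, were sought on the transcribed strand only and may overlap.
RPL7A, chr9:133351396-133351425, plus strand: aaataattgaaatAATACAaattttccttc
TUBA1B, chr12:49127786-49127815, minus strand: atcatatctcaaAGTAAAgtcattaacatc
RPL23A, chr17:28723904-28723933, plus strand: tgAATATAtatatatatatatcttttcacc
PCBP2, chr12:53479803-53479832, plus strand: ctttgtgAATAGAaactggatgccacagtg
EIF2S3, chrX:24077940-24077969, plus strand: aaggtcaagaAGTAAAagatgttagaaagc
SRSF9, chr12:120461674-120461703, minus strand: ctgtttagaAATATAtTTTAAAtgtttagt
JUND, chr19:18279761-18279790, minus strand: tttctgttttcAGTAAAgtctcgttacgcc
NCL, chr2:231454910-231454939, minus strand: ttcatcccatgtacaaaaccattttttcct
RPL34, chr4:108629993-108630022, plus strand: ccggtaataattattctgccattattaggt
PSMB5, chr14:23025858-23025887, minus strand: tggatgttaacattacactactcactactc
CHTOP, chr1:153645441-153645470, plus strand: ctgtgttgtatgaaacccttttgtcctttg

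In the ribosomal protein gene RPL7A, AAUACA ended 12 nt before the site, and in the alpha-tubulin gene TUBA1B and the AP-1 gene JUND AGUAAA ended 13 nt and 14 nt before it. NCL (nucleolin), PSMB5 (a catalytic subunit of the proteasome) and CHTOP (an mRNA export factor) had a single 3′ UTR PAC and no listed variant within 50 nt. The 30 nt before the CHTOP site were 13.3% A, against 46.7% in RPL7A.

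Most of these PACs carried another variant where the main signal lies elsewhere. At least 1 of the 11 variants was found within 50 nt of 1381 of the 1776 PACs (77.8%, 75.8% to 79.6%), against 34% of the other 3′ UTR PACs (33.1% to 35.0%). In a window further out, over 100 nt and up to 150 nt upstream of the same sites, the share was 20.2%, and it was 23.3% in the other PACs. A variant ended between 10 and 30 nt upstream in 72.3% of the PACs without a main signal and in 20.6% of the others. AGUAAA led with 340 PACs (19.1%, against 1.24% in the window further out), followed by UAUAAA with 17.6%, AAUAUA with 12.4%, UUUAAA with 12.3%, AAUACA with 8.90% and CAUAAA with 7.88%. GAUAAA was in 6.87%, AAUGAA in 6.02%, AAGAAA in 5.69%, ACUAAA in 3.72% and AAUAGA in 3.04%. For AGUAAA and for UAUAAA the last base lay a median of 16 nt upstream, whereas UUUAAA ended a median of 20 nt upstream and only 53.0% of its matches ended between 10 and 30 nt. AAGAAA was in 4.11% of the PACs in the window further out, somewhat below its share near the site (4.70% to 6.86%). At least 1 of 3 hexamers listed apart was in 12.6% of the PACs and in 12.5% of the others, where AAAAAG was in 6.87% of the PACs, AAAACA in 5.86% and GGGGCU in 0.676%. None of the 14 hexamers was found in 348 PACs (19.6%, 17.8% to 21.5%).

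**Figure D1:**
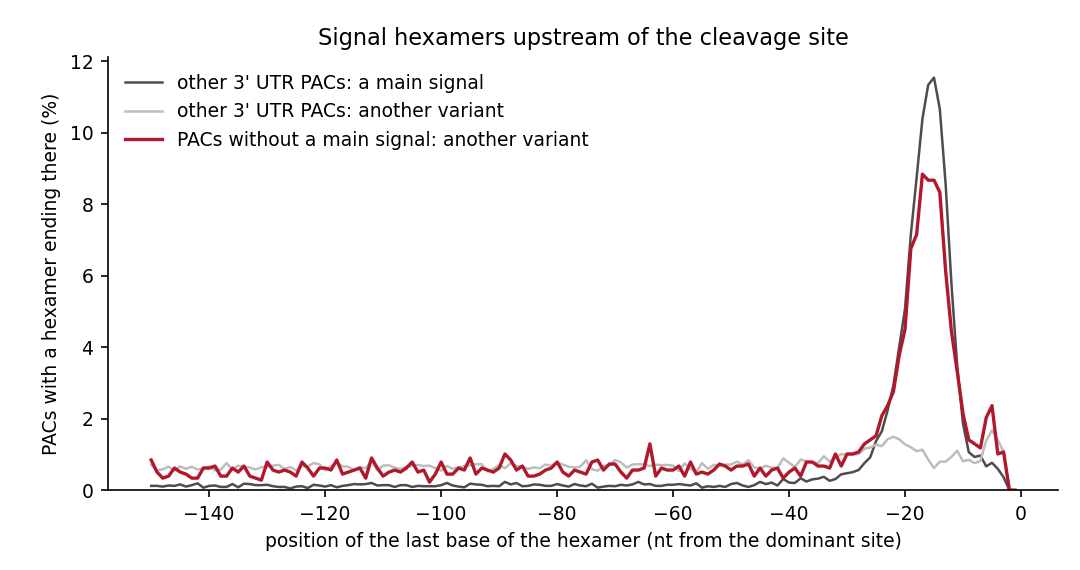
Percent of PACs (y axis) with a signal hexamer whose last base lies at each distance in nt from the dominant site (x axis), for PACs without a main signal (red, further variants) and for all other 3′ UTR PACs (dark grey, main signals; light grey, further variants). The red curve peaks at 8.84% of PACs 17 nt upstream and the dark curve at 11.5% of PACs 15 nt upstream, while the light curve stays below 2%.

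The flanks differed less than the signal, by which the PACs were chosen. UGUA was present within 100 nt upstream of 55.7% of the PACs without a main signal (53.4% to 58.0%) and of 57.0% of the others (56.1% to 58.0%), so no difference was detectable. Downstream, UGUGU or GUGUG lay within 40 nt of 28.0% of these PACs (25.9% to 30.1%), above the 20.02% of the others (19.2% to 20.8%). At 61 to 100 nt downstream the shares were 8.05% and 8.53%. UUUUU lay within 40 nt of 26.5% (24.5% to 28.6%) and 23.7% (22.8% to 24.5%), and these intervals barely overlapped. At 61 to 100 nt downstream UUUUU lay in 9.40% and 12.5%. Adenine reached 50.8% of bases 16 nt upstream, against 59.95% 18 nt upstream in the other PACs. Part of this gap follows from the rule, since only the others had to hold AAUAAA or AUUAAA upstream.

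A-rich genomic sequence after a site, at which oligo(dT) can prime inside a transcript in methods that use it, was uncommon. By a rule of 6 A in a row or 7 A in 10 nt within the 20 nt downstream, it followed 70 of the 1776 PACs (3.94%, 3.13% to 4.95%) and 2.69% of the others (2.39% to 3.03%). It followed 8.35% of the 395 PACs with no listed variant and 2.68% of the 1381 with one. The PAC of RPL34 was among these. A run of 6 A alone followed 1.69% of the PACs without a main signal (1.19% to 2.40%) and 0.546% of the others (0.418% to 0.711%). Without A-rich sites, PACs lacking both main signals were 15.0% of 3′ UTR PACs, and 78.8% of them held another variant. Whether priming inside the transcript gave any of these PACs was not tested.

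PACs without a main signal were lower, more spread and more often proximal. Their highest TPM had a median of 19.5, against 28.1 in the others, and the share of 3′ UTR PACs without a main signal fell from 20.2% at TPM 5 to 10 to 9.40% above TPM 200. Below the limit, at TPM 1 to 5, it was 24% (460 of 1918 PACs). The PACs next to the limit were those of PDCD11, included at 5.00 TPM, and of TMEM63A, left out at 4.98 TPM. Of the 3′ UTR tags they held 8.21% (l-lactate) and 8.13% (control) in KYSE30, and 9.14% (l-lactate) and 9.0% (control) in TE-1. The quantile width, the distance between the lower and upper quantile positions of a PAC in the files, exceeded 100 nt in 19.3% of these PACs and in 12% of the others. In 15.8% a main signal preceded some other position between the quantiles. Where all 4 libraries listed the PAC, the dominant site was the same in all of them in 83.8%, against 89.1% in the others.

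In genes with several 3′ UTR PACs, 62.1% of the PACs without a main signal were the most proximal (58.8% to 65.3%) and 25.9% the most distal (23.1% to 29.0%), against 40.7% and 49.2% of the others. Seen from the gene, 26.3% of proximal PACs, 21.7% of middle, 11% of distal and 12.8% of single PACs lacked both signals. They lay within 24 nt of an annotated transcript end in 50.8% of cases, against 71.8% in the others, and more than 100 nt before the nearest such end in 31.8%, against 18.0%. They belonged to 1662 of 9164 genes (18.1%), and in 1199 genes (13.1%) such a PAC was the highest 3′ UTR PAC. In 916 genes it was the only one.

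**Figure D2:**
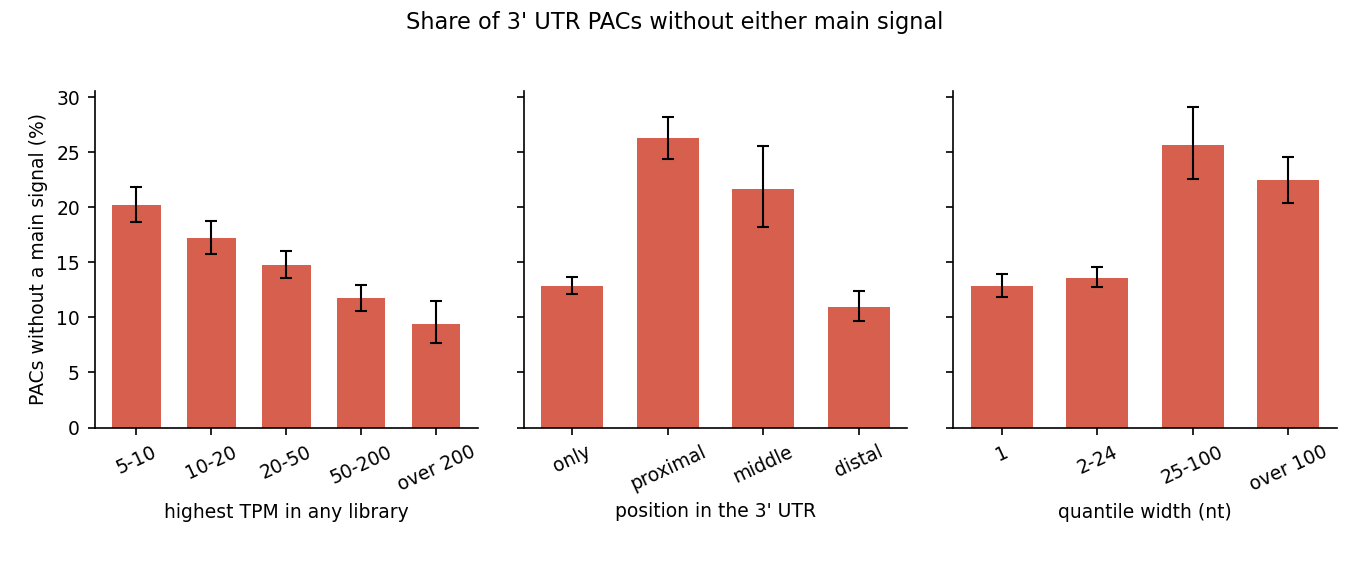
Percent of 3′ UTR PACs without either main signal (y axis, bars from 0 with 95% Wilson intervals) by highest TPM in any library, by position within the 3′ UTR of the gene and by quantile width in nt. The share falls from 20.2% to 9.40% with rising TPM, is highest for proximal PACs (26.3%) and is 25.7% at widths of 25 to 100 nt, against 12.8% at a width of 1 nt.

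Usage varied with the kind of signal at each end of the gene. In 294 genes with 2 PACs whose proximal PAC had no main signal and whose distal PAC had AAUAAA, the proximal PAC took a median of 28.9% (l-lactate) and 27.2% (control) of the 3′ UTR TPM in KYSE30, and 32.0% in each library of TE-1. In 659 genes with AAUAAA at each PAC the medians were 50.7%, 49.8%, 56.2% and 57.4%. In 97 genes with AAUAAA at the proximal PAC and no main signal at the distal one they were 68.6%, 67.4%, 60.1% and 63.6%. The order of the 3 kinds of gene was thus the same in each library, although single genes ranged widely.

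**Figure D3:**
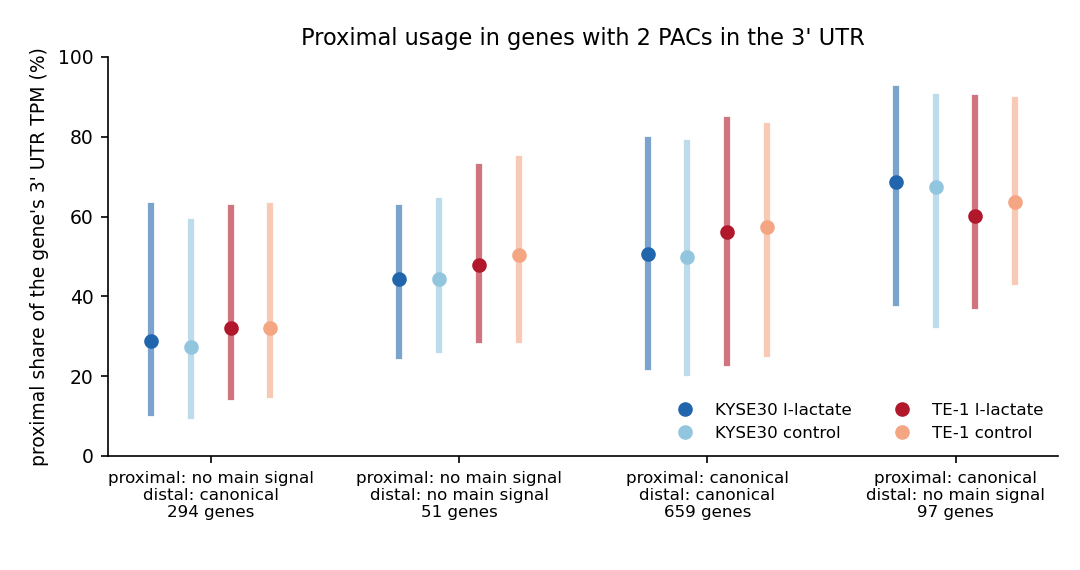
Proximal share of the 3′ UTR TPM of a gene in percent (y axis) for genes with exactly 2 PACs, grouped by the signal at each PAC (x axis). Points are medians over genes in each of the 4 libraries and thick lines run from the lower to the upper quartile. Medians lie between 27.2% and 32.0% where only the proximal PAC lacks a main signal, and between 60.1% and 68.6% where only the distal PAC lacks it.

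RPL7A stood at 4677 TPM (l-lactate) and 4602 TPM (control) in KYSE30 and at 5749 and 6060 TPM in TE-1, where 1 tag counts 1 transcript end with no correction for length. TUBA1B stood at 1651 and 1728 TPM in KYSE30 and at 3696 and 3473 TPM in TE-1. RPL23A had 2278, 2196, 1828 and 1866 TPM in the same order, RPL34 1318, 1310, 1387 and 1535 TPM, and NCL 1123, 1061, 1042 and 1016 TPM. In these 5 genes l-lactate and control differed by -0.15 (RPL34 in TE-1) to 0.09 (TUBA1B in TE-1) on the log2 scale. The PAC of EIF2S3, the gamma subunit of initiation factor eIF2, was at 175.5 and 177.2 TPM in KYSE30 and at 796.1 and 868.3 TPM in TE-1, so the lines did not overlap.

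By gene lists, such a PAC was the highest 3′ UTR PAC in 3 of 75 cytosolic ribosomal protein genes (4.00%), in 4 of 79 nuclear genes of oxidative phosphorylation (5.06%) and in 37 of 236 zinc finger genes (15.7%), against 13.1% of all genes. Among oxidative phosphorylation genes it was found in COX5B, a subunit of cytochrome c oxidase, at 337.8, 332.9, 498.4 and 502.3 TPM, in NDUFS1, a core subunit of complex I, at 86.6, 67.7, 110.6 and 98.6 TPM, and in the assembly factors NDUFAF8 and NDUFAF3. Of 20 genes of the 3′ end machinery it was found in 4 (20%), near the 18.1% of all genes that had such a PAC. CPSF1, the largest CPSF subunit, had it as its only PAC, at 65.2, 67.7, 40.03 and 40.3 TPM. WDR33, which reads the hexamer, had it as the distal PAC, with AAUACA upstream and 82.4%, 86.8%, 80.7% and 83.2% of its 3′ UTR TPM, and CPSF2 and the poly(A) polymerase gene PAPOLG had it at up to 21.4 and 17.3 TPM. JUNB, like JUND an early response gene of AP-1, had AGUAAA before its only PAC, at 124.3, 121.6, 64.1 and 49.9 TPM. Of 11 keratin genes only KRT8 had such a PAC (9.09%, against 18.1% of all genes), a minor proximal one of at most 8.66 TPM. Of 10 histone genes with a 3′ UTR PAC, H2AZ2 and H2AC6 had it (20%), again near the 18.1% of all genes.

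The libraries held 7174991 to 10393799 tags, and a library listed no PAC below 1.06 TPM, so an unlisted PAC, entered as 0, need not be absent. Of the epithelial markers, EPCAM was at 635.3 and 563.1 TPM in KYSE30 and at 36.4 and 30.7 TPM in TE-1. CDH1 was at 228.0 and 204.3 TPM in KYSE30 and at most 1.30 TPM in TE-1. Of the squamous markers, KRT6A was listed only in KYSE30, at 40.4 (l-lactate) and 20.3 TPM (control). KRT17 was listed only in TE-1, at 186.8 (l-lactate) and 244.7 TPM (control). No 3′ UTR PAC was listed for the other squamous markers TP63, KRT5, KRT14 and SFN. None was listed for PTPRC, COL3A1 or PECAM1, and COL1A1 reached 5.39 TPM in TE-1. With the libraries grouped by title, the lines thus did not overlap in EPCAM, CDH1, KRT6A or KRT17, though KRT6A differed between the KYSE30 libraries.

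Whether l-lactate changed the level of these PACs was asked first within each line, past 1.5-fold on log2(TPM + 1), with no test, since a group is 1 library. In KYSE30, 96 of 1666 PACs without a main signal were higher with l-lactate (5.76%) and 57 lower (3.42%). Over all PACs tested, the background was 4.02% higher and 3.95% lower, and in the other 3′ UTR PACs it was 3.15% and 3.04%. In TE-1, 109 of 1676 were higher (6.50%) and 49 lower (2.92%), against a background of 4.93% and 3.51% and against 3.84% and 2.53% in the other 3′ UTR PACs. With a pseudocount of 5 the shares were 2.46% higher and 1.14% lower in KYSE30, against 1.6% and 1.22% of all PACs, and 2.33% and 1.55% in TE-1, against 1.94% and 1.5%. Among PACs listed in all 4 libraries they were 3.6% and 1.70% in KYSE30, against 2.46% and 2.43% of all such PACs, and 4.48% and 1.49% in TE-1, against 3.28% and 2.00%. Higher PACs outnumbered lower ones in both lines under each setting, and the difference from the background was not tested.

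The median change was near 0, at 0.02 on the log2 scale in KYSE30 and 0.05 in TE-1, against 0.00 and 0.04 over all PACs. Changes were commoner at low TPM. At TPM 5 to 10, 11.5% were higher and 7.56% lower in KYSE30, against 7.76% and 7.94% of the other 3′ UTR PACs of this level, and 12.9% and 7.16% in TE-1, against 10.2% and 6.80%. At TPM 20 to 50 the shares were 4.76% and 1.59% in KYSE30, against 2.07% and 1.91%, and 3.64% and 1.14% in TE-1, against 2.09% and 1.90%. The shares also differed by position, not in the same way in the lines. Among proximal PACs without a main signal 9.34% were higher in KYSE30 and 9.23% in TE-1, against 5.01% and 4.73% of other proximal PACs. Among middle ones 10.1% and 7.07% were higher, against 8.26% and 6.18%, and among distal ones 3.85% and 8.74%, against 3.45% and 5.01%. Among PACs alone in their gene 3.62% and 4.29% were higher, against 2.31% and 3.14%. Past 1.5-fold higher in both lines were 16 of the 1776 PACs (0.901%), against a background of 0.598% over all PACs. Lower in both were 5 (0.282%), against a background of 0.477%, namely DYNLT3, GCAT, HMGB1 (its distal PAC), SH3GLB2 and STK39, named after their values were seen.

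**Figure D4:**
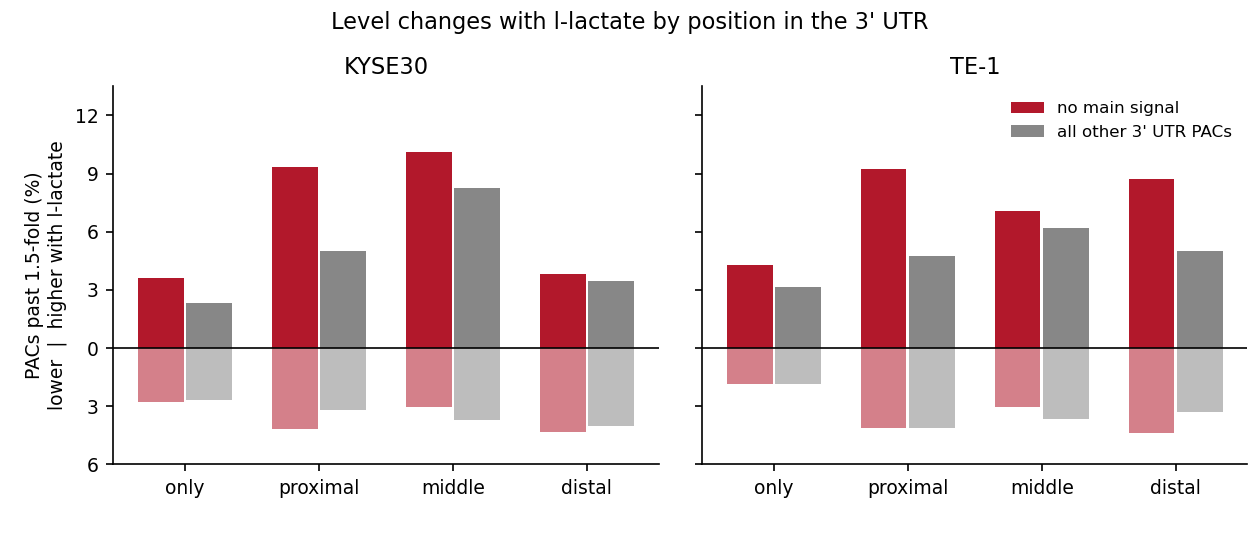
Percent of PACs past 1.5-fold higher (bars above 0) or lower (bars below 0) with l-lactate in each line (y axis), by position within the 3′ UTR of the gene (x axis), for PACs without a main signal (red) and all other 3′ UTR PACs (grey). The red bars for proximal PACs reach 9.34% higher in KYSE30 and 9.23% in TE-1, against 4.17% and 4.13% lower.

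With the lines taken as the only replicates, limma on log2(TPM + 1) over 14053 PACs, with line and treatment as terms and 1 residual degree of freedom, called none of the 1776 PACs at an adjusted p of at most 0.05, against a background of 0%. The lowest adjusted p was 0.266, and 202 PACs had an unadjusted p below 0.05 (11.4%, against 10.1% of all PACs). The count differed between settings. A pseudocount of 5 gave 48 calls (34 higher, 14 lower, 2.70%, background 2.1%), PACs listed in all 4 libraries gave 40 (29 higher, 11 lower, 2.72%, background 2.12%), and a minimum TPM of 10 gave 0. The first 2 fits shared 34 calls. The share called was within its interval of the background in each, 2.04% to 3.57% and 2.00% to 3.68%.

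Among PACs above TPM 10 in every library, the largest rises shared by both lines, by the smaller change of the lines, were in HNRNPLL, HS2ST1, IRF2BP2, ARPP19 and DDX31. The PAC of HNRNPLL, a splicing regulator, went from 17.0 TPM in the control to 31.5 TPM with l-lactate in KYSE30 and from 18.0 to 27.2 TPM in TE-1. That of the heparan sulfate 2-O-sulfotransferase gene HS2ST1 went from 32.1 to 47.9 TPM and from 11.5 to 24.2 TPM. IRF2BP2, a transcriptional corepressor, went from 53.2 to 76.7 TPM and from 89.5 to 128.0 TPM. That l-lactate lay above the control in each line follows from how these genes were chosen. ARPP19, an inhibitor of the phosphatase PP2A in mitosis, went from 35.96 to 57.8 TPM and from 62.8 to 86.9 TPM, and the RNA helicase gene DDX31 from 20.6 to 33.5 TPM and from 36.9 to 51.2 TPM. The fitted log2 changes of these 5 were between 0.52 (IRF2BP2, SE 0.08) and 0.79 (HS2ST1, SE 0.14). Their limma adjusted p was 0.329 to 0.379 with the pseudocount of 1, 0.0783 to 0.119 at a minimum TPM of 10, and at most 0.00607 with a pseudocount of 5 or with PACs listed in all 4 libraries.

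The largest falls by the same rule were in GCAT, an enzyme of mitochondrial threonine breakdown, from 25.05 to 15.7 TPM in KYSE30 and from 25.5 to 14.4 TPM in TE-1, and in ERLEC1, a lectin of the endoplasmic reticulum, from 29.6 to 22.7 TPM and from 26.7 to 17.6 TPM. The distal PAC of EIF4EBP2, a repressor of translation initiation, went from 108.7 to 80.8 TPM and from 37.4 to 28.9 TPM. The PACs of RBAK and CTTN (cortactin) were lower by 0.35 to 0.39 on the log2 scale in each line. These values are of the PAC without a main signal, not of the gene. In CTTN it held only 2.13% to 5.29% of the 3′ UTR TPM. The distal PAC of CTTN, with AAUAAA, went from 1458 to 1378 TPM in KYSE30 and from 244.5 to 268.7 TPM in TE-1. In ERLEC1 the distal PAC, with AAUAAA, was slightly higher with l-lactate in each line. By limma adjusted p, GCAT and EIF4EBP2 passed with a pseudocount of 5 and with PACs listed in all 4 libraries (0.00257 to 0.0364), ERLEC1 with the former alone (0.0473), and RBAK and CTTN in none of the 4 fits.

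Usage, the share of the 3′ UTR TPM of a gene that falls on a PAC, was compared in genes with at least 2 PACs above TPM 5 in a library of the line. In KYSE30, 29 of 661 PACs without a main signal gained at least 10 percentage points with l-lactate (4.39%, background 4.14%) and 19 lost as much (2.87%, background 4.33%). In TE-1, 48 of 681 gained (7.05%, background 5.64%) and 30 lost (4.41%, background 5.36%). The median change was 0.51 and 0.23 percentage points. In both lines gains outnumbered losses, and the share with a loss lay below the background. By position, proximal or middle PACs without a main signal gained in 4.51% and lost in 2.05% in KYSE30, against 5.02% and 3.50% of others. In TE-1 these were 6.08% and 4.12%, against 4.93% and 5.99%. Distal ones gained in 4.05% and lost in 5.20% in KYSE30, against 3.11% and 5.87% of others. In TE-1 they gained in 9.94% and lost in 5.26%, against 5.71% and 5.15%. Median control usage was 30.9%, against 45.2% in the other PACs, in KYSE30, and 32.6% against 44.3% in TE-1.

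HMGB1, a DNA-bending chromatin protein, had the change with the most tags among the named genes. Its proximal PAC, with AAUACA and AGUAAA upstream, held 40.1% of 5315 tags in the KYSE30 control (38.8% to 41.4%) and 52.3% of 4439 with l-lactate (50.8% to 53.8%). In TE-1 it held 44.3% of 5669 tags (43.0% to 45.6%) and 62.5% of 3891 (60.9% to 64.0%). The PAC itself went from 286.8 to 323.5 TPM and from 241.7 to 287.0 TPM, while the middle PAC, with AAUAAA, went from 406.6 to 286.1 TPM and from 295.7 to 168.1 TPM. The distal PAC, again without a main signal, went from 22.4 to 9.06 TPM and from 8.08 to 4.25 TPM. In HMGB1 the gain in proximal usage therefore came with a larger drop at the middle PAC than rise at the proximal one, in both lines.

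HS2ST1 had 4 PACs, of which the middle one at 1523 nt and the distal one at 5282 nt from the start of the 3′ UTR lacked both main signals. The middle one went from 37.5% to 48.5% of tags in KYSE30 and from 29.0% to 51.4% in TE-1, and the distal one from 39.8% to 25.7% and from 45.7% to 31.8%. The intervals of control and l-lactate did not overlap for either PAC. HMGB1, HS2ST1 and the other genes named for usage were chosen for large changes shared by both lines. Separation of their intervals therefore follows in part from that choice. The intervals cover counting error alone, so they cannot show whether a change exceeds the variation between cultures. IRF2BP2 used its proximal PAC at 65.2% and 76.6% in KYSE30 and at 65.7% and 79.5% in TE-1, and ARPP19 at 26.0% and 37.2% and at 43.2% and 52.9%, again without overlap. In ARPP19 the distal PAC, with AAUAAA, stood at 102.5 and 97.6 TPM in KYSE30 and at 82.5 and 77.5 TPM in TE-1. The interferon-induced gene IFIT5 went from 58.0% to 73.2% and from 48.6% to 62.4%, on 119 to 173 tags, and its intervals overlapped in both lines.

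Usage also moved the other way. PNPT1, an exoribonuclease of mitochondria, used its proximal PAC at 74.4% in the KYSE30 control (64.6% to 82.3%) and at 46.0% with l-lactate (35.9% to 56.4%), and at 80.6% and 58.5% in TE-1, on 87 to 227 tags. ZC3H14, a poly(A)-binding zinc finger protein, went from 76.7% to 59.2% and from 77.4% to 63.0% at its proximal PAC. These 2 genes gained at the distal PAC, which went from 3.10 to 6.55 TPM and from 4.23 to 10.2 TPM in PNPT1. POLR2M, linked to RNA polymerase II, and ZNF226 lost usage of the distal PAC, from 71.0% to 57.6% and from 69.0% to 61.6% in KYSE30 and from 69.7% to 60.9% and from 54.8% to 44.8% in TE-1. The intervals of ZNF226 overlapped in both lines and those of POLR2M in TE-1 only.

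**Figure D5:**
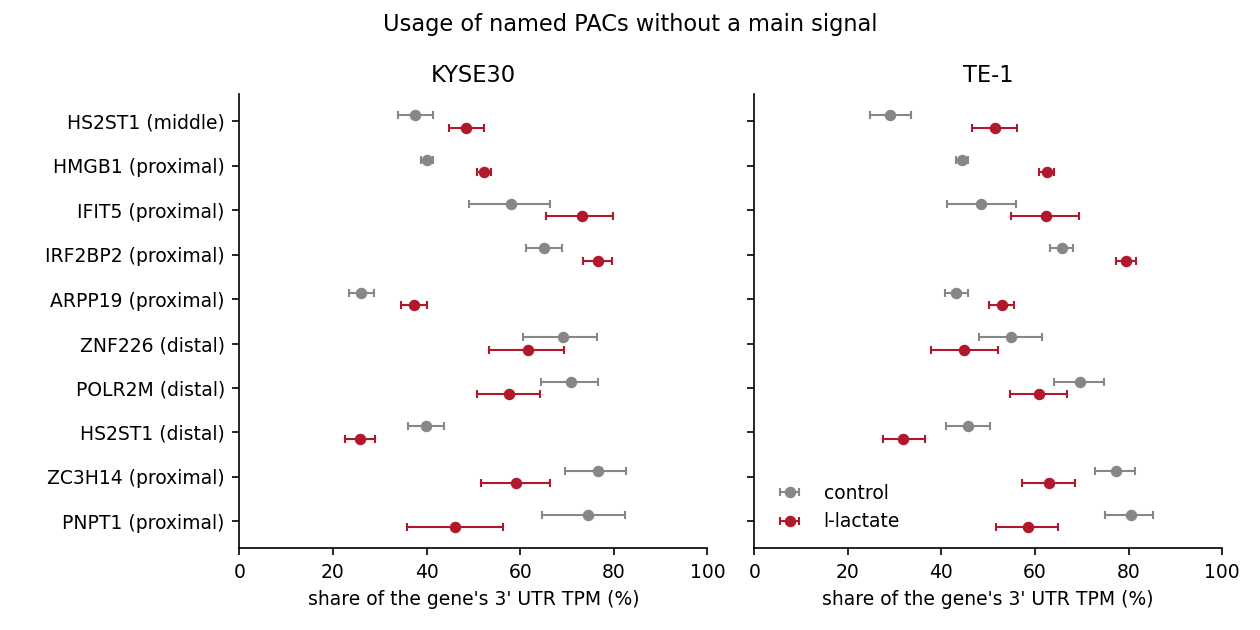
Share of the 3′ UTR TPM of the gene at 10 named PACs without a main signal in percent (x axis), in each line, with l-lactate (red) and in the control (grey). Bars are 95% Wilson intervals on tags, which cover counting error alone, and the PACs were chosen for large changes shared by both lines. HMGB1 goes from 40.1% to 52.3% in KYSE30 and from 44.3% to 62.5% in TE-1, and PNPT1 from 74.4% to 46.0% and from 80.6% to 58.5%.

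Within PACs, the dominant site moved by more than 24 nt between control and l-lactate in 45 of 1348 PACs without a main signal in KYSE30 (3.34%, 2.50% to 4.44%) and in 34 of 1370 in TE-1 (2.48%, 1.78% to 3.45%). The background over 3′ UTR PACs was 1.5% and 1.26%, and in the other PACs the shares were 1.2% and 1.05%. Every such move was in a PAC wider than 24 nt, which a move of this length largely requires. Among those, 10.6% of PACs without a main signal moved in KYSE30 (7.99% to 13.8%) and 7.73% in TE-1 (5.58% to 10.6%), against 6.52% (5.38% to 7.89%) and 5.75% (4.67% to 7.05%) of the others. In KYSE30 26 moved downstream and 19 upstream, and in TE-1 21 and 13. A main signal stood before at least 1 of the sites in 27 of the 45 and in 21 of the 34, since the rule reads the sequence only at the dominant site of the highest library.

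The longest moves in each line included FDX1, mitochondrial ferredoxin, an electron carrier for iron-sulfur and steroid synthesis that is required for copper-induced death. Its single PAC had a dominant site 552 nt further downstream with l-lactate in KYSE30 and 691 nt in TE-1. It stood at 29.5 TPM in the KYSE30 control and 37.6 TPM with l-lactate, and at 36.8 and 39.8 TPM in TE-1. The proximal sites that dominated in the controls followed AUUAAA and the distal sites that dominated with l-lactate followed UAUAAA. No site held more than 23.7% of the tags of the PAC, with 56 of 270 and 48 of 219 tags at the dominant site in KYSE30 and 80 of 337 and 79 of 382 in TE-1. The tags at the competing site of each library were not analysed here.

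In both lines the site moved in 6 of 1122 PACs without a main signal (0.535%), against 18 of 8101 of all 3′ UTR PACs (0.222%). These 6 moved the same way in the lines, FDX1, FAM98B, ASAH1, GATAD2B and MMP24OS downstream and MRFAP1 upstream. Of the 18, which include these 6, 13 moved the same way. GATAD2B, of the NuRD complex, moved 461 nt in each line between sites of 44.1% to 45.9% of tags, with AAUAUA before the downstream site, which is followed by A-rich sequence. MMP24OS moved 389 nt in each line. ABCG2, a drug efflux pump, CRNKL1, of the spliceosome, and YTHDF3, a reader of N6-methyladenosine, were among the longest moves in KYSE30, by 486 nt, 465 nt and -411 nt, where a minus sign means upstream. SURF4, a cargo receptor, and PDK3, a kinase of pyruvate dehydrogenase, moved by -486 nt and -455 nt in TE-1. These moves rest on few tags at the dominant sites of single libraries. In ABCG2 these held 30 of 90 tags in the control and 23 of 62 with l-lactate, and in CRNKL1 22 of 74 and 22 of 83. In YTHDF3 they held 39 of 149 and 52 of 129, in SURF4 46 of 109 and 41 of 63, and in PDK3 42 of 52 and 32 of 78.

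The lines differed far more than the treatments. By limma, 326 of the 1776 PACs were higher in KYSE30 (18.4%, 16.6% to 20.2%) and 359 in TE-1 (20.2%, 18.4% to 22.1%) by at least 2-fold at an adjusted p of at most 0.05, against a background of 20.4% and 19.2%. These shares are near those of all PACs. Of the PACs called higher in KYSE30, 97 of 326 (29.8%) were not listed in TE-1, and of those higher in TE-1, 108 of 359 (30.1%) were not listed in KYSE30. Over all PACs these were 1002 of 2866 (34.96%) and 941 of 2695 (34.92%). With PACs listed in all 4 libraries, 402 were called in place of 685. A line was 1 control and 1 l-lactate library, and the labels do not say whether these came from separate cultures, so culture and library effects cannot be told apart from the line.

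The 5 PACs furthest higher in KYSE30 were in TSPAN1, ABCC2, MLPH, LAD1 and LY6D. TSPAN1, a tetraspanin, stood at 251.4 and 267.5 TPM in KYSE30 and at 4.37 and 2.69 TPM in TE-1 (log2 difference 5.87, SE 0.16, limma adjusted p 2.36e-06). ABCC2, an organic anion exporter, stood at 241.8 and 226.4 TPM and at 3.19 and 1.06 TPM. The PACs of MLPH (melanophilin), LAD1 (ladinin, of basement membranes) and LY6D stood at 76.8 and 98.3, 78.5 and 73.9, and 55.1 and 68.1 TPM in KYSE30 and were not listed in TE-1. In the other direction, GSTM3, a glutathione transferase, stood at 350.0 and 361.9 TPM in TE-1 and at 2.09 TPM in 1 KYSE30 library. CCN5, a matricellular protein, stood at 184.7 and 213.3 TPM, the zinc importer gene SLC39A4 at 124.7 and 141.8 TPM and the cytidine deaminase gene CDA at 136.6 and 104.3 TPM in TE-1, and none of the 3 was listed in KYSE30. NNT, the mitochondrial transhydrogenase, stood at 181.5 and 173.6 TPM in TE-1 and at 1.08 TPM in the KYSE30 control alone. These 10 were chosen for the largest differences between the lines, so the gap between the lines follows from that choice. In the high line l-lactate and control differed by -0.35 (MLPH) to 0.39 (CDA) on the log2 scale.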

How the data were processed

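PAS-seq libraries were made from KYSE30 and TE-1 cells with l-lactate or PBS, 1 library each. The authors trimmed reads with FASTX-Toolkit, aligned them to GRCh38 with HISAT2, called sites with CAGEr and joined nearby sites and clusters, so a PAC can hold several sites. The deposited TPM values are RPM, tags scaled by the authors to the library total with no length term, and whole tags worked out from their steps served for Wilson intervals only. These intervals cover counting error alone. Columns of per-sample values not used numbered 0.

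PACs were placed by dominant site in GENCODE 44, and sequence was read with pysam 0.24.0. Levels were compared by limma 3.58.1 (R 4.3.3) on log2(TPM + 1) with line and treatment as terms, a trended prior and Benjamini-Hochberg adjustment over 14053 PACs, and the calculations were tested on simulated data. Unlisted PACs entered as 0. Of 17627 PACs, 6 lay on sequences not matched by name. Named were the 10 PACs of highest TPM, 6 single PACs without a variant, up to 4 per gene list and 5 each way for levels (TPM above 10 throughout, by the smaller change of the lines), usage (TPM above 5 throughout), sites and lines. The members and lists were chosen with earlier results of these data known.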

Additional observations from a re-analysis of the deposited data

Results flagged for a closer look

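Of the 1776 PACs without a main signal, 10 were past 1.5-fold with l-lactate in opposite directions in the lines, among 55 of all 14053 PACs. They were marked because the lines moved opposite ways, and the difference between the lines was not tested. In NPM1 the proximal PAC was at 6.87 TPM in the KYSE30 control and not listed with l-lactate, and in TE-1 it was at 6.85 TPM with l-lactate and not listed in the control. The proximal PAC of RPS6 was at 3.37 TPM in the KYSE30 control alone and at 8.03 TPM in TE-1 with l-lactate alone. YIPF6, with all values listed, went from 13.6 to 8.50 TPM in KYSE30 and from 6.83 to 12.4 TPM in TE-1. These 3 were picked after their values were seen. With 1 library a group, no sample could be set against its group.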

How the results depend on the processing

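The limma fit sets l-lactate against control within each line, with the line as its only block, and the labels give no replicate numbers for another. The planned count tests (edgeR, DESeq2) were not run, since the values are TPM. The share of 3′ UTR PACs without a main signal was 16.5% at a minimum TPM of 1, 13.9% at 10, 14.5% with signals sought in 100 nt and 12.8% with signals sought before every site of the PAC. Another variant was found in 82.5% with 100 nt, 75.7% with 40 nt and 82.3% with every site. A-rich sequence followed 2.94% with every site, 1.69% by a run of 6 A alone and 2.82% within 10 nt. An annotated end was near 47.2% at a minimum TPM of 1, 54.8% at 10, 54.9% with every site, 47.2% within 10 nt and 59.2% within 100 nt. PACs higher and lower with l-lactate in KYSE30 were 2.46% and 1.14% with a pseudocount of 5, 3.6% and 1.70% among PACs listed in all 4 libraries and 3.90% and 2.07% at a minimum TPM of 10, and 3.62% were higher among single PACs. In TE-1 they were 2.33% and 1.55%, 4.48% and 1.49%, 4.38% and 1.51%, and 4.29% and 1.86%, with 7.82% higher at a pseudocount of 0.5. Usage called from 5 points rose in 17.4% and fell in 9.68% in KYSE30 and rose in 18.5% and fell in 15.3% in TE-1, and at a minimum TPM of 10 it fell in 1.69% and 2.53%. Site moves were 2.45% by midpoints in KYSE30 and 1.75% past 100 nt in TE-1. By limma, l-lactate calls were 48 with a pseudocount of 5 and 40 among PACs listed in all 4 libraries, in place of 0, and line calls 402 in the latter. Leaving out 1 library, in line-only fits added after seeing the data, gave 459 to 506 line calls. The cause was not tested in any of these, beyond the smaller sets that the minimum TPM and the listing leave. A further 54 values moved by less than their limit.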

Other observations

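The most PACs without a main signal in 1 gene was 3, in RBMS2, SFXN1 and SSR1. In SFXN1, a mitochondrial serine transporter, no 3′ UTR PAC had a main signal, and the distal one, with AAGAAA and CAUAAA, was at 133.1 TPM with l-lactate and 102.5 TPM in the control in KYSE30 and at 142.4 and 105.4 TPM in TE-1. In SSR1, a subunit of the translocon-associated complex of the endoplasmic reticulum, the third PAC, with CAUAAA, was the highest of 4, at 101.2 and 86.1 TPM in KYSE30 and 250.6 and 220.6 TPM in TE-1, while the fourth, with a main signal, reached 25.7 TPM. In RBMS2, an RNA-binding protein, the 3 PACs ranged from 2.60 to 9.48 TPM.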
